A study of Mus musculus with 8 samples.

Results

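The beta-1,4-galactosyltransferases are a family of Golgi enzymes that transfer galactose from UDP-galactose to another sugar, and their 7 genes, B4galt1 to B4galt7, were followed here in activated mouse CD4 T cells with and without Bcl6. The members were chosen by gene symbol, and a gene counted as measured where a probe set carried its symbol alone in the platform annotation. B4galt1, B4galt3, B4galt4, B4galt5, B4galt6 and B4galt7 had 1 such probe set each, so 6 of the 7 members are among the 19938 genes named on the array. The only probe set listed for B4galt2 also lists Ccdc24, and no level is given for B4galt2. The measured value that the choice could use, the mean over all 8 arrays, was to pick between the probe sets of a gene, and with 1 each it decided nothing. The family itself was selected on the known rise of B4galt4 between the genotypes, so the values of B4galt4 are a description and lend no independent support to anything.

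Sorted naive CD4 T cells came from wild-type mice (WT) and from mice with a T cell-specific conditional Bcl6-/- genotype (KO), with 4 arrays per genotype. All 8 cultures received antibodies to CD3 and CD28, antibodies that block IL-4, IFNg and TGFb, and the cytokines IL6 and IL21 for 24 hours, and the labels call the resulting cells follicular helper T (Tfh) cells. The driver of the deletion, the strain, the age of the mice and whether each array stands for a mouse of its own are not given in the sources used here, so p-values measure only the spread among these samples, part of which may be technical. Bcl6 represses transcription and is needed for the Tfh fate, and the comparison asks which transcripts differ without it.

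Galactose added by these enzymes to N-acetylglucosamine makes N-acetyllactosamine (LacNAc), the unit on which sialic acid, fucose and galectins act at the T cell surface. B4galt1, B4galt2 and B4galt3 act mainly on glycoproteins, and B4galt4 also acts on sulfated N-acetylglucosamine in keratan sulfate. B4galt5 and B4galt6 make lactosylceramide, the base of most glycosphingolipids, and B4galt7 adds the first galactose of the linker that joins glycosaminoglycan chains to proteoglycans.

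Bcl6, the targeted gene, does not check the labels, because where its single probe set lies relative to the deleted part is not known here. It stood at 8.61, 8.91, 8.78 and 8.79 on the log2 scale in WT replicates 1 to 4 and at 9.08, 9.15, 9.18 and 9.19 in KO replicates 1 to 4, higher in the KO-labelled arrays (limma adjusted p = 0.0303). That call did not survive leaving out WT replicate 3 or 4 (limma adjusted p = 0.0922 and 0.0591) or KO replicate 2, 3 or 4 (0.11, 0.105 and 0.0696). All directions are those of the arrays as labelled. Of 10 CD4 T cell markers, 9 were named on the array and all 9 passed the expression filter, which asks for a value above the 40th percentile of named probe sets in at least 4 arrays. The Tfh genes Cxcr5, Icos, Pdcd1 and Il21, examined after the data were seen, lay above it in all 8 arrays. Cxcr5, at 7.27 to 8.11, came near the filter, which lay at 6.91 to 7.15 across arrays. Only Cd79b of 7 B cell, Cst3 of 10 myeloid and Slc4a1 of 3 erythroid markers passed it. Of 11 CD8 T and NK cell markers 6 passed it, and the mean level of that list ran from 7.28 to 7.65 in WT and from 7.24 to 7.40 in KO. None of the 6 passed the test (limma), but 3 had an unadjusted p under 0.05, all lower in KO: the cytotoxic granule genes Nkg7 (-0.89 ± 0.233, SE; limma adjusted p = 0.0947) and Prf1 (-0.44 ± 0.118; 0.102), both without overlap, and the transcription factor gene Eomes (-0.37 ± 0.141; 0.232). The groups did not overlap, with KO lower, in 33.3% of the 6, against 7.66% of all tested genes. The rest of the 6 did not share this fall. Gzmb, also a cytotoxic granule gene, was higher in KO (0.35 ± 0.182, SE; limma adjusted p = 0.385). Cd8a and Cd8b1 differed by -0.04 and 0.03 (limma adjusted p = 0.937 and 0.932). Of 8 epithelial or stromal markers 5 passed it, with a mean level of the list from 7.57 to 7.65 in WT and from 7.43 to 7.65 in KO. Epcam, the epithelial adhesion molecule, fell among them, with 8.07 ± 0.135 in WT and 7.495 ± 0.143 in KO (log2, SD, n = 4), a fall of 0.57 with an SE of 0.0860 and no overlap (limma adjusted p = 0.0181). Its call was lost without WT replicate 1, 2 or 3 (limma adjusted p = 0.0561, 0.0843 and 0.0699) and without KO replicate 2 or 3 (0.0767 and 0.0774). The 4 other tested markers of that list did not pass: Krt8, Col1a1, Col3a1 and Pecam1 differed by 0.0, 0.0025, -0.03 and -0.12. The part of the marker differences in the results below was not tested. In bulk RNA, fewer cells of a type and less RNA per cell cannot be told apart. KO replicate 1 stood apart: its median deviation from its group was 0.115, against 0.035 to 0.0725 in the other 7 arrays, and it correlated best with WT replicate 3. Results are therefore also given without it.

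The promoter windows of B4galt4, the member that passed the test, and of B4galt7, the other tested member whose groups did not overlap, are shown because Bcl6 is a DNA-binding factor and the cytokines of the culture signal through STAT factors. They come from RefSeq (build GRCm38.p6), run 5′ to 3′ on the strand of the gene from 250 bases before the start site to 50 after it, and have the GC box CCCGCCC in capitals. The B4galt4 window is chr16:38742009-38742308 on the plus strand and the B4galt7 window chr13:55599646-55599945 on the plus strand.
B4galt4: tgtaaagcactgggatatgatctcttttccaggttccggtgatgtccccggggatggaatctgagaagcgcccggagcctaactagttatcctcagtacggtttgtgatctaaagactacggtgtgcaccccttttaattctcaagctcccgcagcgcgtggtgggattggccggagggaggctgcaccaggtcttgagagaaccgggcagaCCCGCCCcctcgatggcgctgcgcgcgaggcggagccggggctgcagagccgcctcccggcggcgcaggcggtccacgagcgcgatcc
B4galt7: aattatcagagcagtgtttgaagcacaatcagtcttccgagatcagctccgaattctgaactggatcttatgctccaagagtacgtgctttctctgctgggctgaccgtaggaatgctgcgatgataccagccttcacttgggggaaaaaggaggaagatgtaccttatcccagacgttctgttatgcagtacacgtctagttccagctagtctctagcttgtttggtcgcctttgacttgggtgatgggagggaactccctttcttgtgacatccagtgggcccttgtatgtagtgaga

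The 2 windows differ in base composition. The B4galt4 window has 62.7% G and C and 27 CpG dinucleotides, and the B4galt7 window has 48.3% and 8, where the median over 32851 RefSeq promoter windows is 52.7% and 7. Both strands of the 6 windows found for the family (B4galt1 to B4galt5 and B4galt7) were searched for 4 motifs. The GC box CCCGCCC, bound by Sp-family factors, was found in 5 of the 6 windows, all but that of B4galt7, and in 25.6% of all windows. It occurred once in the B4galt4 window and 7 times in that of B4galt5. The Bcl6-type motif TTCCTNGAA was in none of the 6 and in 1.59% of all windows. The STAT-type motif TTCNNNGAA, which contains every Bcl6-type match, was in the B4galt1 window alone, as TTCCGCGAA, and in 8.3% of all windows. The Ets-type motif CCGGAAG was in none of the 6 and in 8.86% of all. These matches describe the letters of the windows and say nothing about binding.

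B4galt4 was higher in every KO-labelled array than in any WT-labelled array. Its log2 signal was 7.57, 7.43, 7.53 and 7.49 in WT replicates 1 to 4 and 8.33, 8.34, 8.4 and 8.43 in KO replicates 1 to 4. The lowest KO value lay 0.76 above the highest WT value, a gap many times the spread within either group. The means were 7.505 ± 0.0597 and 8.375 ± 0.0480 (SD, n = 4), a difference of 0.87 ± 0.0486 (SE) or 1.83-fold, with a 95% interval of 0.76 to 0.98 on the log2 scale. In the limma fit over 11926 genes it had the second smallest p (rank 2; adjusted p = 4.57e-05), and the exact permutation p was 0.0286, the smallest that 4 against 4 can give. All 8 values lay above the expression filter, but passing it does not by itself show that the gene is expressed in WT. The WT values, 7.43 to 7.57, lay close to the array medians of 7.35 to 7.42.

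The call for B4galt4 was kept in each of the 8 fits that left out 1 array, where the difference ran from 0.85 to 0.89 and the limma adjusted p from 2.91e-05 to 0.000618. Without KO replicate 1, the array that stood apart, the difference was 0.89, as large as with it. In KO replicate 1 B4galt4 read 8.33, at the level of the other 3 KO-labelled arrays.

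Of the 5 members that passed the filter, 1 rose, B4galt4, and none fell (limma, adjusted p under 0.05; 2 of the 5 had an unadjusted p under 0.05, as did 16.6% of all tested genes). Over all tested genes 0.646% were called higher and 0.671% lower, 77 and 80 genes, and 48 and 30 where each array was centred on its median. Leaving out 1 array moved the total of 157 genes to 782 for KO replicate 1, to 32, 34 and 68 for KO replicates 2, 3 and 4, and to 74, 31, 34 and 107 for WT replicates 1 to 4. The groups did not overlap in 2 of the 5 members, B4galt4 and B4galt7, and in 10.8% of all tested genes. Because the family was selected on the rise of B4galt4, these counts of members are a description. The median difference of the 5 members was -0.02, against -0.0175 over all tested genes.

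**Figure D1:**
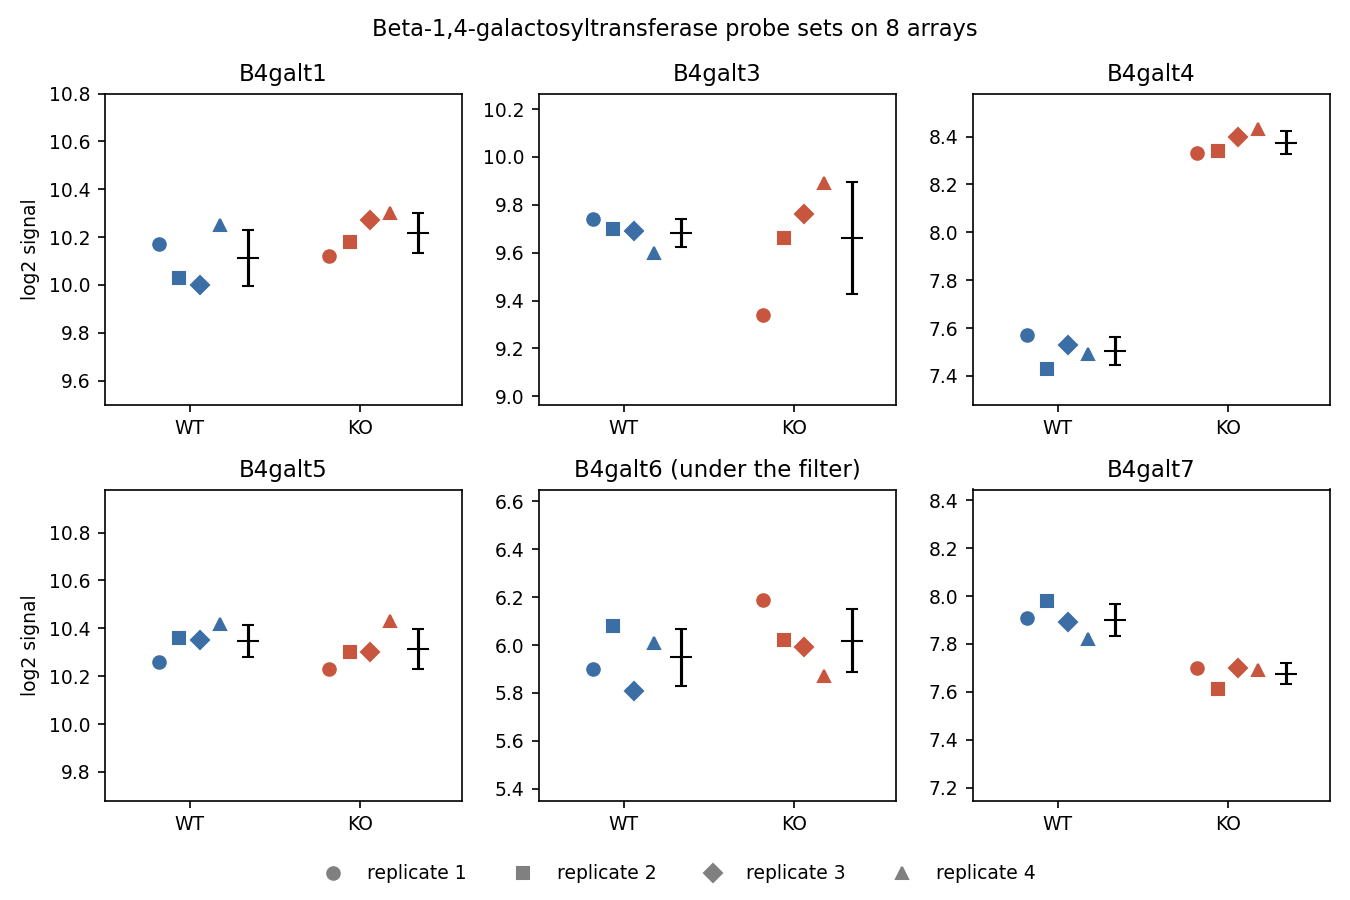
Log2 signal of the 6 measured members in each WT and KO array, 1 panel per gene with axes of equal span; marker shapes give the replicate number and the black bar the mean with its SD (n = 4). The KO points of B4galt4 (8.33 to 8.43) sit above all WT points (7.43 to 7.57), those of B4galt7 (7.61 to 7.70) sit below all WT points (7.82 to 7.98), and the groups overlap in the other 4 genes.

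Among the glycoprotein enzymes, B4galt1, which makes most LacNAc on N-glycans and lactose in milk, differed little. Its log2 signal was 10.17, 10.03, 10.00 and 10.25 in WT and 10.12, 10.18, 10.27 and 10.30 in KO replicates 1 to 4. The groups overlapped, and the difference was 0.105 ± 0.0680 (SE; limma adjusted p = 0.507; 95% interval -0.05 to 0.26). B4galt3, a close relative of B4galt4 that acts on N-glycans, stood at 9.74, 9.70, 9.69 and 9.60 in WT and at 9.34, 9.66, 9.76 and 9.89 in KO. Its KO values spread more widely (SD 0.235) than its WT values (SD 0.0591), with KO replicate 1 lowest and KO replicate 4 highest of all 8. The difference was -0.02 ± 0.102 (SE; limma adjusted p = 0.959; 95% interval -0.25 to 0.21), and it was 0.09 without KO replicate 1 (adjusted p = 0.376). A change in B4galt3 of the size seen for B4galt4 lies outside that interval.

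B4galt5 and B4galt6, the lactosylceramide synthases, were not called. B4galt5, the main such enzyme in most tissues, read 10.26, 10.36, 10.35 and 10.42 in WT and 10.23, 10.30, 10.30 and 10.43 in KO replicates 1 to 4, with overlapping groups. Its difference of -0.0325 ± 0.0565 (SE; limma adjusted p = 0.855) had a 95% interval of -0.16 to 0.09. B4galt6, known best from brain, did not reach the expression filter in any of the 8 arrays and was left out of the fit. Its values were 5.90, 6.08, 5.81 and 6.01 in WT and 6.19, 6.02, 5.99 and 5.87 in KO replicates 1 to 4, with overlapping groups (exact permutation p = 0.543).

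B4galt7, the galactosyltransferase of the proteoglycan linker, was lower in every KO-labelled array but did not pass the test. It read 7.91, 7.98, 7.89 and 7.82 in WT and 7.70, 7.61, 7.70 and 7.69 in KO replicates 1 to 4. The highest KO value lay 0.12 below the lowest WT value. The difference was -0.225 ± 0.0492 (SE; 95% interval -0.33 to -0.12), with a limma adjusted p of 0.0589 and an exact permutation p of 0.0286. It passed without KO replicate 1 (limma adjusted p = 0.0272), a fit that calls 6.56% of all genes, 3.88% higher and 2.67% lower, and missed the threshold in the other 7 fits that left out 1 array (0.0611 to 0.213). The difference itself stayed between -0.25 and -0.20 in these 8 fits. B4galt4 and B4galt7 thus lay on opposite sides of 0. This is a description, since the family was selected on the rise of B4galt4 and B4galt7 did not pass.

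**Figure D2:**
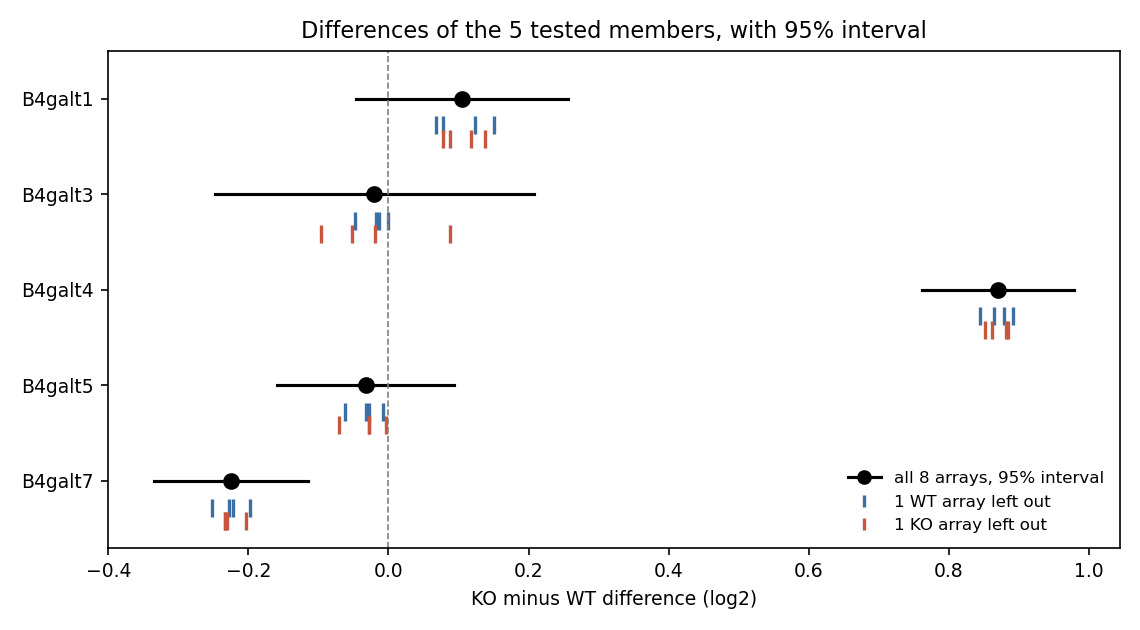
KO minus WT difference on the log2 scale for the 5 tested members; black points and lines give the fit on all 8 arrays with its 95% interval, and ticks under each give the fits with 1 WT array (blue) or 1 KO array (red) left out. B4galt4 stays between 0.85 and 0.89 and B4galt7 between -0.25 and -0.20, while B4galt3 moves from -0.10 to 0.09 across 0.

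B4galt4 lies on chromosome 16, as Bcl6 does, with 73 tested genes between them in RefSeq gene order. On that chromosome 17 of 364 tested genes with a RefSeq position were called, or 4.67%, against 1.32% over all tested genes. Of the 5 tested genes on either side of B4galt4, 1 was called: Arhgap31, the nearest on one side, which encodes a GTPase-activating protein of Rac and Cdc42. Arhgap31 averaged 8.92 ± 0.0990 in WT and 9.35 ± 0.0216 in KO (SD, n = 4, log2 signal). It rose by 0.43 ± 0.0551 (SE; limma adjusted p = 0.00822) and was called in all 8 fits that left out 1 array. Zbtb20, the nearest on the other side, differed by -0.07 ± 0.108 (limma adjusted p = 0.831). The next gene after it, Tigit, an inhibitory receptor of T and NK cells, differed by -0.28 ± 0.0711 (limma adjusted p = 0.0861). The other 7 neighbours, Cox17, Timmdc1, Poglut1, Tmem39a, Qtrt2, Ccdc191 and Zdhhc23, differed by -0.15 to 0.07 with adjusted p of 0.351 or more. The median difference of the 10 neighbours was -0.07. Lpp, Bcl6 and St3gal6 are the other genes named here that were called on this chromosome. They were higher in KO by 1.055, 0.38 and 0.44. Whether the differences on chromosome 16 are linked was not tested.

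The genes around the other members were read in the same way, beside the 1.32% of all tested genes that were called. Of the 10 tested neighbours of each, 1 was called beside B4galt1, the same count as beside B4galt4. It was Ndufb6, a respiratory chain subunit, which fell by 0.32 (limma adjusted p = 0.0423). None was called beside B4galt3, B4galt5, B4galt6 or B4galt7, where the smallest adjusted p ran from 0.062 to 0.29. The 10 neighbours of B4galt7 had a median of -0.07.

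**Figure D3:**
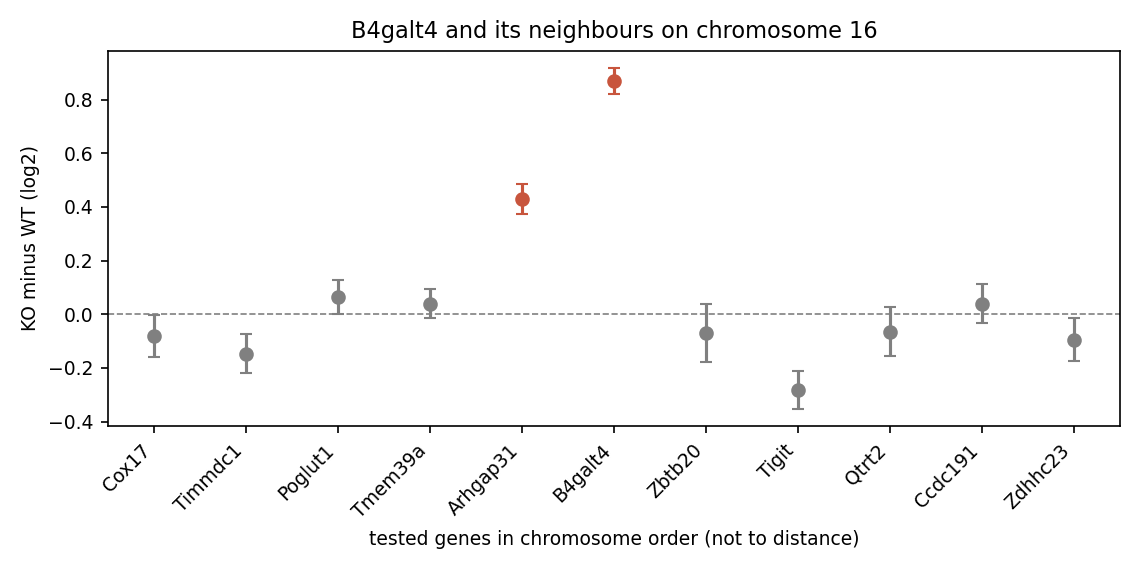
KO minus WT difference (log2, bars are the limma SE) of B4galt4 and the 5 nearest tested genes on either side in chromosome order, without distances; red marks genes with a limma adjusted p under 0.05. B4galt4 (0.87) and Arhgap31 (0.43) stand above 0 and the other 9 genes lie between -0.28 and 0.07.

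The genes whose profile was most like that of B4galt4 were ranked by the root mean square distance between profiles, each centred on its own mean, over the 8 arrays on the log2 scale. The nearest were Dapl1 (a distance of 0.105), Nrn1, which encodes neuritin (0.122), Lpp, the neighbour of Bcl6 (0.125), Agpat4, a lysophospholipid acyltransferase (0.141), and Ngly1, the cytosolic enzyme that removes N-glycans from misfolded glycoproteins (0.153). The median distance over all other tested genes was 0.456. All 5 were higher in KO, by 0.595 for Ngly1 to 1.055 for Lpp, since a profile with 1 step between the groups is matched by genes with a step of like size. Ngly1 stood at 10.28 ± 0.0920 in WT and 10.875 ± 0.0866 in KO (SD, n = 4). These values are a description, because the 5 genes were picked on the same arrays for a profile like that of B4galt4.

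The rest of the galactosylation pathway was followed in 10 gene lists that hold 176 genes outside the family, of which 166 were named on the array and 128 passed the filter. Man1a and St3gal6 rose and none fell (limma; 5 higher and 15 lower at an unadjusted p under 0.05, 15.6% of the 128 against 16.6% of all tested genes). The calls are 1.56% of the 128, against 1.32% of all tested genes called. The groups did not overlap in 2 higher and 11 lower genes, or 1.56% and 8.59%, against 3.1% and 7.66% of all tested genes. The median difference of the 128 genes was -0.03, near the -0.0175 of all tested genes. By these counts the pathway lists lay near the background. Without KO replicate 1, 3 of the 128 were called, or 2.34%, against 6.56% of all tested genes, a share below the background.

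**Figure D4:**
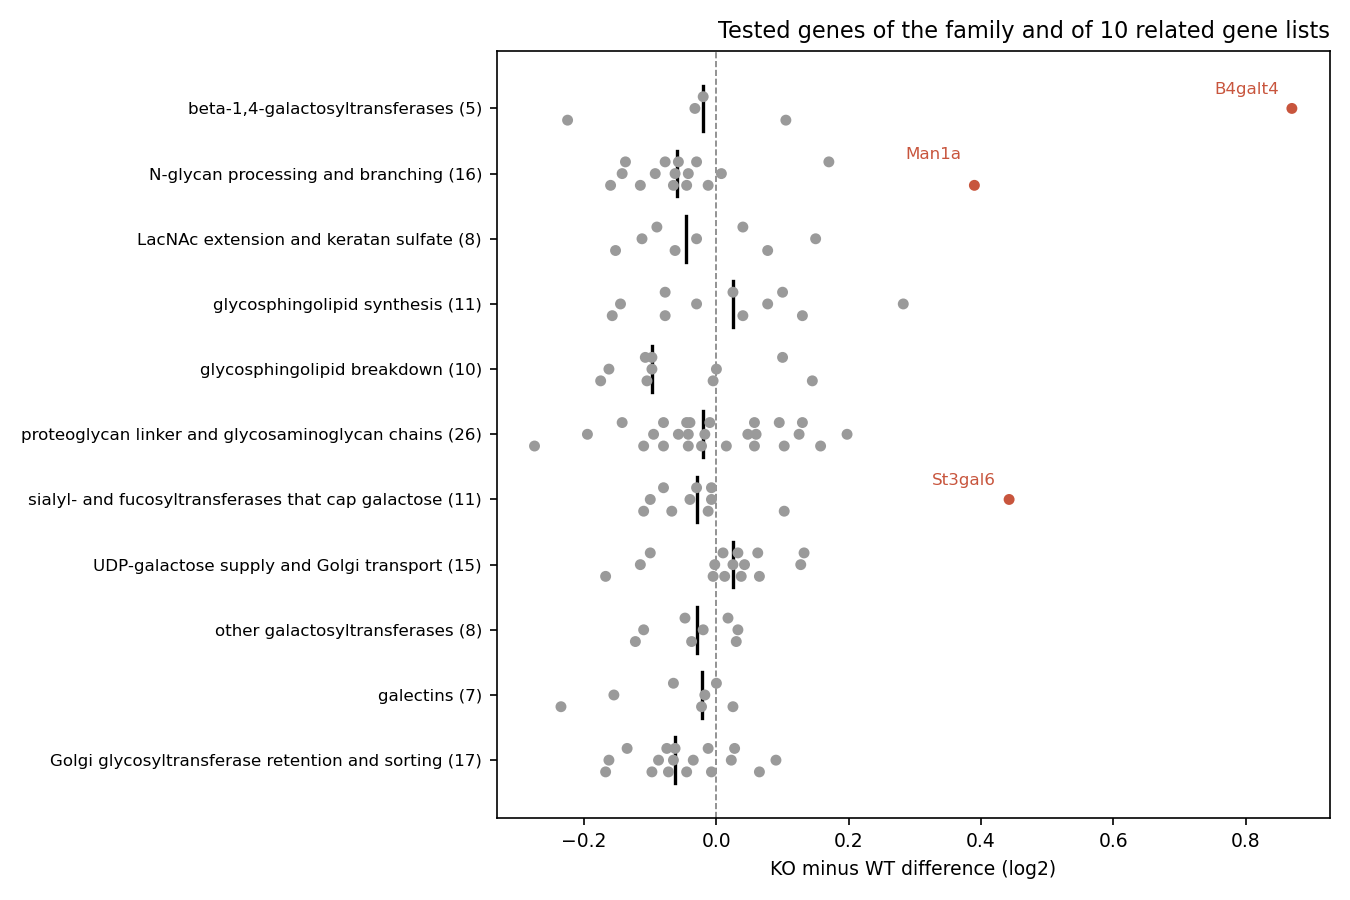
KO minus WT difference (log2) of each tested gene in the family and in 10 related lists, with the number of tested genes in parentheses; red points passed the test and the black bar is the median of the list. B4galt4 (0.87), St3gal6 (0.44) and Man1a (0.39) are the called genes, and the medians of the lists lie between -0.0975 and 0.025.

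Enzymes that trim and branch N-glycans provide the acceptors of B4galt1 to B4galt4. Of 16 tested, 1 rose and 15 did not pass, and the median difference was -0.06. Man1a, the Golgi mannosidase that trims the high-mannose precursor, read 10.84, 10.94, 10.98 and 11.07 in WT and 11.26, 11.39, 11.34 and 11.40 in KO replicates 1 to 4, with no overlap. It rose by 0.39 ± 0.0590 (SE; limma adjusted p = 0.0182). The call was lost without WT replicate 2 or 3 (limma adjusted p = 0.0935 and 0.0699) and without KO replicate 2 or 3 (0.084 and 0.0774). Of the branching enzymes none passed: Mgat1, which starts complex N-glycans, differed by -0.08 ± 0.0738 and Mgat5, which makes the branch that galectins bind best, by -0.16 ± 0.0822 (limma adjusted p = 0.373). Mgat3, which adds the bisecting residue, differed by -0.14 ± 0.0484 (limma adjusted p = 0.178) with groups that did not overlap.

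Of 8 tested genes of LacNAc extension and keratan sulfate, the substrate named for B4galt4, none passed (limma; 2 at an unadjusted p under 0.05), with a median of -0.05. Chst2, a sulfotransferase that puts sulfate on N-acetylglucosamine, had the smallest p: its values were 11.375 ± 0.0881 in WT and 11.525 ± 0.0686 in KO (SD, n = 4), which differ by 0.15 ± 0.0580 (SE), with a limma adjusted p of 0.234. B3gnt2, which alternates with the galactosyltransferases in poly-LacNAc chains, differed by -0.15 ± 0.0651 (adjusted p = 0.276). The other 13 of the 21 genes of the list lay under the filter and were not tested with limma. Among them are the core proteins that carry keratan sulfate in connective tissue, Lum, Fmod, Kera, Omd and Prelp. Of the 13, only Gcnt1 had groups that did not overlap, at 5.85 to 5.97 in WT and 6.14 to 6.62 in KO.

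Genes on either side of the lactosylceramide step were also not called. Of 11 tested genes of glycosphingolipid synthesis and 10 of breakdown, none passed (limma; 2 and 1 at an unadjusted p under 0.05), with medians of 0.025 and -0.0975. Ugcg, which makes the glucosylceramide that B4galt5 and B4galt6 use, differed by 0.13 ± 0.0613 (limma adjusted p = 0.330). St3gal5, which turns lactosylceramide into the ganglioside GM3, stood at 7.63, 7.62, 7.59 and 7.94 in WT and at 7.94, 7.90, 7.98 and 8.09 in KO replicates 1 to 4. Its groups overlapped only through WT replicate 4, the highest WT value, and the difference was 0.28 ± 0.0812 (SE; limma adjusted p = 0.120). It passed without WT replicate 4 (limma adjusted p = 0.0273). Psap, the precursor of the saposins that help break down glycosphingolipids, differed by -0.0975 ± 0.0422 (adjusted p = 0.284).

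The proteoglycan list, in which B4galt7 acts, had 26 tested genes and no call (limma; 2 at an unadjusted p under 0.05, both lower), with a median of -0.02. The linker is built in order by Xylt1 or Xylt2, B4galt7, B3galt6 and B3gat3, with Fam20b as the kinase of its xylose. Xylt1 differed by -0.02 ± 0.0562 and Xylt2 by -0.08 ± 0.0540. B3galt6, which adds the second galactose, read 8.91, 9.0, 8.87 and 9.01 in WT and 8.58, 8.8, 8.76 and 8.87 in KO replicates 1 to 4, a difference of -0.195 ± 0.0672 (SE; limma adjusted p = 0.185) with groups that met at 8.87. B3gat3, which closes the linker with glucuronic acid, differed by -0.095 ± 0.0449 (adjusted p = 0.331), with groups that did not overlap, and Fam20b by 0.095 ± 0.0450 (0.332). The linker genes other than B4galt7 are named for their place in this order, chosen after their values were seen, and none of them passed. Chst15, a sulfotransferase of chondroitin sulfate, had the smallest p of the list: it differed by -0.275 ± 0.0582 (SE; limma adjusted p = 0.0537), did not overlap between groups and passed without KO replicate 1 (0.031).

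The list of enzymes that cap galactose with sialic acid or fucose gave the other call. Of its 11 tested genes, St3gal6 rose and 10 did not pass, with a median of -0.03. The 11 include related genes that do not themselves cap galactose, such as Cmas, Slc35a1, Slc35c1 and St8sia4. St3gal6, a sialyltransferase that acts on LacNAc, read 9.71, 9.50, 9.30 and 9.42 in WT and 9.84, 9.94, 9.90 and 10.02 in KO replicates 1 to 4. The groups did not overlap, with WT replicate 1 nearest to the KO values. It rose by 0.44 ± 0.0829 (SE; limma adjusted p = 0.0423) and, like B4galt4, lies on chromosome 16. The call was kept without WT replicate 1 (limma adjusted p = 0.0164) and without KO replicate 1 (0.0156). It was lost without WT replicates 2, 3 and 4 (0.143, 0.105 and 0.0822) and without KO replicates 2, 3 and 4 (0.133, 0.119 and 0.0871).

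The remaining lists held no call. They were 15 genes of UDP-galactose supply and Golgi transport, 8 of the list of other galactosyltransferases, 7 galectins and 17 genes of Golgi enzyme retention and sorting (limma; 3, 1, 2 and 2 at an unadjusted p under 0.05). The 8 include related genes that do not encode galactosyltransferases, such as B4galnt4. Of the same list, B3galt1, B3galt2 and B3galt5 lay under the filter and were not tested. Slc35a2, which carries UDP-galactose into the Golgi, differed by 0.06 ± 0.0510 (SE), and the median of its list was 0.025. The members with the smallest p were Uxs1, which makes UDP-xylose (-0.115 ± 0.0455, limma adjusted p = 0.241), B4galnt4, a related N-acetylgalactosaminyltransferase (-0.12 ± 0.0512, 0.264), the galectin Lgals3 (-0.235 ± 0.0687, 0.127) and Cog5, a subunit of the Golgi tethering complex (-0.17 ± 0.0446, 0.0992). Lgals3, a lectin that binds LacNAc, was 9.54, 9.69, 9.78 and 9.52 in WT and 9.29, 9.40, 9.43 and 9.47 in KO replicates 1 to 4, without overlap. The medians of the last 3 lists were -0.03, -0.02 and -0.06.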

How the data were processed

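RNA from Qiagen columns, 100 ng for each sample, was biotin-labelled for Affymetrix whole-transcript arrays, per the labels' protocols. The authors deposited 1 log2 value per probe set and array, rounded to 2 decimals; RMA and Partek are named as tools per the submitters' processing notes, with versions, order of steps and genome build not given in the sources used here. RMA brings arrays to nearly equal distributions (medians 7.35 to 7.42), so a change in total RNA cannot be seen and levels of different probe sets cannot be compared. The number of arrays limits the precision.

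Of 35556 probe sets, 21789 carried 1 symbol, 1621 several and 12146 were not listed; 21698 matched the RefSeq gene table (GRCm38.p6) by Entrez identifier. The probe set with the highest mean stood for a gene, and 11926 genes passed the filter. The KO against WT comparison used limma (version 3.58.1, R 4.3.3; no block, two-sided, Benjamini-Hochberg over all tested genes, threshold 0.05), and single genes also with a two-sided exact permutation test. The fit was tested on simulated data with independent normal values for each gene. Those data hold no array that stands apart as KO replicate 1 does, so the test does not bear on how calls move between arrays.

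The members, lists and tests were chosen with earlier results of these data known. The genes named were the 7 members, Bcl6, up to 2 called rises and 2 called falls per list or else the smallest p, the 5 profiles nearest to B4galt4 among named protein-coding genes, and its 5 tested neighbours on either side (others, chosen after their values were seen, are named for their role or non-overlapping groups). The alternatives were other normalizations, filters, variance models, array weights, averaging over a gene's probe sets, a block for the replicate number, other thresholds and each array left out in turn.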

Additional observations from a re-analysis of the deposited data

Results flagged for a closer look

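Among 64 groups of 4 values, for the genes named by rule, 3 held an array far from the other 3, where chance gives about 3.2. B4galt7 in KO replicate 2 was low at 7.61, against 7.69 to 7.70 in the other KO-labelled arrays. St3gal5 in WT replicate 4 was high at 7.94, against 7.59 to 7.63. Zdhhc23, a neighbour of B4galt4, was high in WT replicate 4 at 9.54, against 9.35 to 9.38.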

How the results depend on the processing

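B4galt4 was called in all 16 alternatives that refit the data, with differences from 0.85 to 0.91 and limma adjusted p from 1.62e-06 to 0.00189. B4galt1 and B4galt5 kept their direction and were not called in any of the 16. B4galt7 was lower in all 16 and called in 4 (limma adjusted p = 0.0415 after quantile normalization again, 0.041 with the filter at the 50th percentile, 0.0037 with array weights, 0.0272 without KO replicate 1). B4galt3 changed sign after quantile normalization again (0.0016), with array weights (0.044) and without KO replicate 1 (0.0875), in a range of -0.0958 to 0.0875 with 1 array left out. The causes were not tested.

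The count of called genes, 157, became 322 after quantile normalization again, 78 with median centring, 58 with no filter, 354 with a trend and robust prior, 1980 with array weights, 27 at a threshold of 0.01 and 468 at 0.1; leaving out 1 array gave 31 to 782. The count of called members, 1, became 2 after quantile normalization again, with the filter at the 50th percentile, with array weights and at a threshold of 0.1, and was 1 to 2 with 1 array left out. The pathway count, 2, became 1 with no filter, 21 with array weights, 0 at a threshold of 0.01 and 4 at 0.1, and 0 to 3 with 1 array left out.

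With the replicate number as a block, 36 genes, 1 member (B4galt4, limma adjusted p = 0.00189) and 1 pathway gene (Man1a, 0.0405) were called. Same-numbered WT and KO arrays had deviations that correlated at 0.0111, 0.145, -0.174 and 0.308 across genes. Arrays of different numbers were not compared in this way, so these values cannot decide whether the numbers pair the samples. The main fit used no block. Whether same-numbered arrays share a litter or day is not given in the sources used here.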

Other observations

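The probe set that lists both Ccdc24 and B4galt2 read 7.14, 7.14, 7.19 and 7.10 in WT replicates 1 to 4 and 7.28, 7.21, 7.19 and 7.16 in KO replicates 1 to 4. Its values cannot be assigned to either gene. The means were 7.1425 ± 0.0369 and 7.21 ± 0.0510 (SD, n = 4; exact permutation p = 0.0857).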
